A study of Mus musculus with 6 samples.

Results

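miR-221 and miR-222 are 2 small regulatory RNAs cut from neighbouring hairpins, and each hairpin gives a product from its 3′ side (3p) and one from its 5′ side (5p). The rows of the deposited expression table were taken whose names were mmu-miR-221-3p, mmu-miR-221-5p, mmu-miR-222-3p or mmu-miR-222-5p. All 4 were present, each in 1 row, among 1034 mature miRNAs. The samples were nephron progenitor cells of CD1 mice, an outbred strain, taken as embryos at E14.5, mid-gestation, or as newborns at P0, with 3 samples per stage. Each sample was a pool of kidneys from 1 litter, digested briefly with collagenase A and pancreatin and selected on beads with antibodies to Itga8, per the labels' protocols. No genetic change or drug is given for either stage, so age was the only labelled difference, and the sex of the pooled animals was not given in the sources used here.

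A miRNA guides a silencing complex to messenger RNAs, mainly through its seed, bases 2 to 8 from its 5′ end. One arm of a hairpin usually dominates and is called the guide, and the other, the passenger, is mostly degraded. miR-221 and miR-222 share a seed, are usually made from a common primary transcript, and are best known for lowering the cell-cycle inhibitor p27 (Cdkn1b) and the receptor Kit, which links them to proliferation. They are also well known from endothelial and vascular smooth muscle cells. Nephron progenitors divide to renew themselves through fetal life and are used up soon after birth in the mouse.

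RefSeq (build GRCm38.p6) held a mature sequence for 3 of the 4 members, and miR-222-5p is named only. The mature sequences are shown with the seed in capitals, because the shared seed is what makes the 3p arms comparable as a pair.
miR-221-3p: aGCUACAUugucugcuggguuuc
miR-222-3p: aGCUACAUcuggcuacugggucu
miR-221-5p: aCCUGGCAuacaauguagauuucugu
The 3p arms are both 23 bases long and are identical over their first 8 bases. Without gaps, 11 of the 23 positions are identical and 12 differ, the first being U9C, counted from the 5′ end with the miR-221-3p base first. All differences thus lie beyond the seed, and miR-221-5p has a different seed. Of 1679 mature miRNA names in RefSeq, 3 carry the seed of the 3p arms, namely miR-221-3p, miR-222-3p and miR-1928. The last of these was not analysed here.

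The hairpins are shown whole, with the mature arms for which RefSeq gives a sequence in capitals, to place each measured product.
Mir221: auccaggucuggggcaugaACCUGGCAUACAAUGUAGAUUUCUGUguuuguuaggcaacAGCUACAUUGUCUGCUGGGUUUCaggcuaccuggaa
Mir222: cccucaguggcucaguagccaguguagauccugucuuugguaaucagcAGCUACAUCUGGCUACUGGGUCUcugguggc
Both lie on the minus strand of the X chromosome. The Mir221 hairpin of 95 bases spans chrX:19146294-19146388 and the Mir222 hairpin of 79 bases spans chrX:19146893-19146971, with 504 bases between them. In the deposited table, miR-221-3p is at 19146307 to 19146329, miR-221-5p at 19146344 to 19146369, miR-222-3p at 19146901 to 19146923 and miR-222-5p at 19146941 to 19146961. In GENCODE M21, 0 other genes overlap the pair, and the nearest annotated gene is the processed transcript Gm14636 on the same strand, 10.01 kb to the 5′ side. The plot of the locus shows that Mir222 comes first in the direction of transcription.

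**Figure D1:**
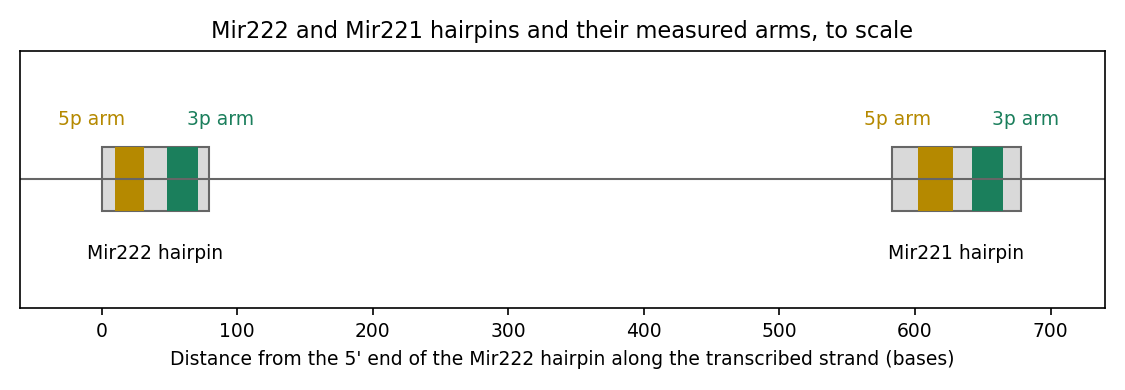
Map of the 2 hairpins to scale, with the distance in bases from the 5′ end of the Mir222 hairpin on the x axis, grey boxes for hairpins and coloured boxes for the 5p and 3p arms. Each 5p arm lies before its 3p arm, and 504 bases separate the hairpins.

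The libraries held from 2649506 to 34934526 reads, recovered as whole numbers from the deposited TPM (reads per base of each miRNA, scaled to 1000000 per library). P0 replicate 1 stood apart: over the 670 miRNAs averaging 1 TPM or more, its log2 levels had a mean Pearson correlation of 0.948 with the embryonic libraries and 0.908 with those of its own stage. Changes and counts over these libraries are therefore also given without it. Most miRNAs were lower at P0 in TPM: the median log2 fold change over these 670 was −1.20. Median-of-ratios scaling divides each library by a factor, here between 0.529 and 1.71, that levels a typical miRNA, and under it the median log2 fold change was −0.18. Each change is read against the median of its own scaling. Where 3 values follow each other for a stage, they are replicates 1, 2 and 3 in that order.

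The 3p arms were the abundant products, and both were lower at birth. miR-221-3p, the main product of the pair, had 525, 848 and 605 TPM at E14.5 against 231, 74.5 and 88.2 TPM at P0. Every E14.5 value lay above every P0 value, and P0 replicate 1 was the highest of its stage. These levels rested on 1454 to 20943 reads per library. The means were 659.7 ± 168 TPM at E14.5 and 131 ± 86.9 TPM at P0 (SD, n = 3), a 5.02-fold difference of means. The limma log2 fold change on log2(TPM + 1) was −2.48 (SE 0.58, 95% interval −3.74 to −1.22, limma adjusted p = 0.00841). In a bulk sample, fewer cells of a type and less of an RNA per cell cannot be told apart.

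miR-222-3p, which carries the same seed, had 79.5, 195 and 161 TPM at E14.5 against 40.7, 24.2 and 38.3 TPM at P0. The stages did not overlap here either, with E14.5 replicate 1 and P0 replicate 1 nearest to each other. The fewest reads were 220, in E14.5 replicate 1, the shallowest library. The means were 145.3 ± 59.5 TPM at E14.5 and 34.4 ± 8.92 TPM at P0 (SD, n = 3), a 4.23-fold difference of means. The log2 fold change was −1.99 (SE 0.58, 95% interval −3.25 to −0.72, limma adjusted p = 0.0220).

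The 5p arms were scarce at both stages. miR-221-5p, the passenger strand of miR-221, had 9.54, 13.2 and 6.41 TPM at E14.5 against 2.05, 2.19 and 5.79 TPM at P0, from 30 to 370 reads. The P0 replicate 3 value came close to the lowest E14.5 value. The means were 9.71 ± 3.39 TPM and 3.34 ± 2.12 TPM (SD, n = 3), and the log2 fold change was −1.36 (SE 0.59, 95% interval −2.63 to −0.08, limma adjusted p = 0.0869). miR-222-5p, the other passenger strand, had 13.9, 16.6 and 6.58 TPM at E14.5 against 4.53, 3.87 and 6.06 TPM at P0, from 32 to 373 reads. E14.5 replicate 3 and P0 replicate 3 were again nearly level. The means were 12.4 ± 5.19 TPM and 4.82 ± 1.12 TPM (SD, n = 3), and the log2 fold change was −1.13 (SE 0.58, 95% interval −2.39 to 0.13, limma adjusted p = 0.137). Neither 5p change passed the threshold of 0.05, and both lay near the median change of all miRNAs.

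**Figure D2:**
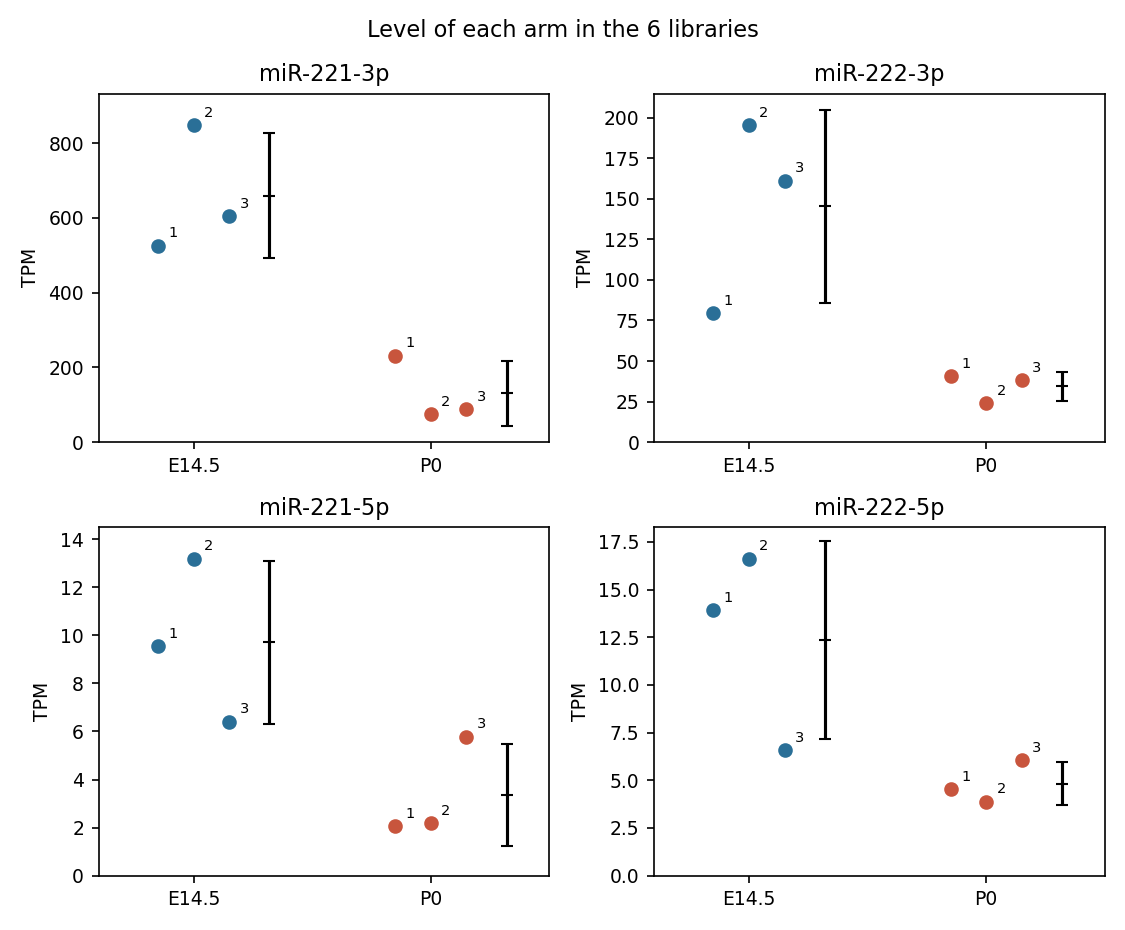
TPM of each arm (y axis, from 0) in the 3 E14.5 and 3 P0 libraries, with points numbered by replicate and the mean with 1 SD to their right. The 3p arms fall from means of 659.7 and 145.3 to 131 and 34.4 TPM, and the 5p arms reach at most 16.6 TPM.

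Set against the whole table, a fall of this kind in TPM was common. Of the 670 miRNAs tested, 220 were called lower and 9 higher at P0, so that 32.8% were called lower, against 2 of the 4 members, the 3p arms. All 4 members had every E14.5 value above every P0 value in TPM, which held for 46.4% of the 670. Ordered from the deepest fall, miR-221-3p was at place 108 of 670, miR-222-3p at 174, miR-221-5p at 297 and miR-222-5p at 356. The 3p arms thus lay among the deeper falls and the 5p arms near the middle.

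After median-of-ratios scaling the falls were smaller and no member passed the threshold. miR-221-3p then had scaled values of 348, 578 and 353 at E14.5 against 264, 141 and 156 at P0. Its stages still did not overlap, and the difference of means was 2.28-fold, with a log2 fold change of −1.20 (SE 0.46, 95% interval −2.22 to −0.18, limma adjusted p = 0.102). An exact two-sided permutation test of its log2 scaled values gave p = 0.1, the smallest that 3 against 3 allow. For miR-222-3p the scaled values were 52.6, 133 and 94.0 at E14.5 and 46.4, 45.7 and 67.5 at P0, so that the stages overlapped, with a log2 fold change of −0.72 (SE 0.51, 95% interval −1.86 to 0.42, limma adjusted p = 0.340). The scaled log2 fold changes of the 5p arms were −0.28 for miR-221-5p (95% interval −1.67 to 1.11) and −0.01 for miR-222-5p (95% interval −1.32 to 1.31). Under this scaling 35 of the 670 miRNAs were called lower, or 5.22%, and 38 higher, and 19.6% had every E14.5 value above every P0 value, as did 1 of the 4 members, miR-221-3p.

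**Figure D3:**
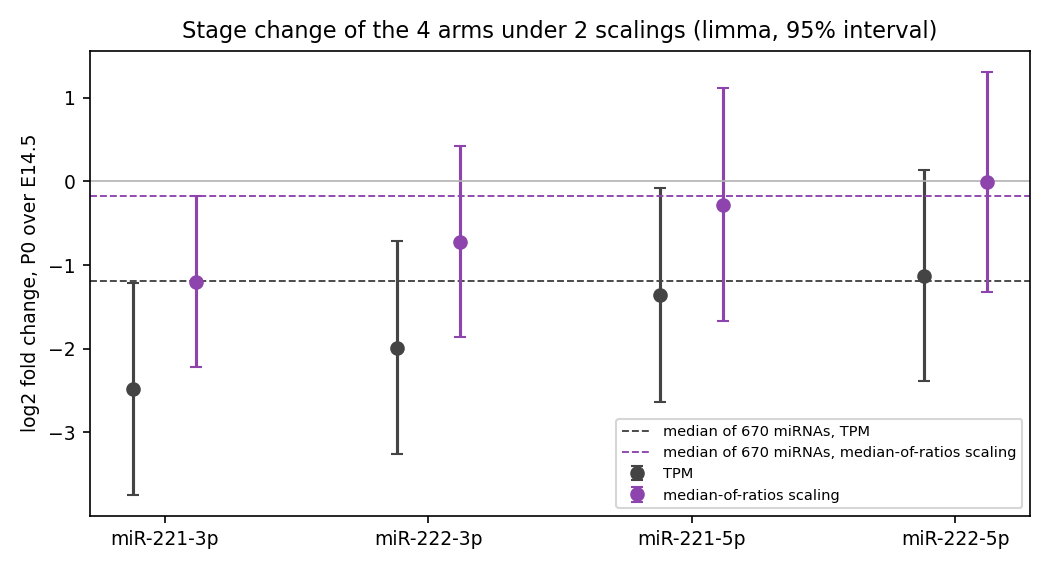
log2 fold change (P0 over E14.5, y axis) of the 4 arms with its 95% interval, in TPM and in values scaled by median-of-ratios, with the median of all 670 miRNAs under each scaling as a dashed line. Only the miR-221-3p interval stays below 0 under both scalings, and the 5p arms sit near the dashed lines.

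P0 replicate 1 moved these results. Without it, the TPM-based log2 change of miR-221-3p was −2.98 (SE 0.33, limma adjusted p = 3.09e-05). The fall after median-of-ratios scaling was −1.48 (SE 0.33, limma adjusted p = 0.00685) when it was left out. That was the only 1 of the 6 scaled fits leaving out a library that called miR-221-3p, and in the other 5 its log2 change was −1.33 to −0.96 (limma adjusted p of 0.223 to 0.326). Without it, 53.4% of all miRNAs were called lower in TPM and 26.4% after scaling, so calls became more frequent in general. In the same fits miR-222-3p had log2 fold changes of −2.12 in TPM, with a limma adjusted p = 0.00209, and −0.64 in scaled values, with a limma adjusted p = 0.262. Those fits gave miR-221-5p −1.15 in TPM and 0.11 in scaled values, and miR-222-5p −1.10 and 0.22, none of them called. In TPM, miR-221-3p lost its call without E14.5 replicate 3, at −2.53 (limma adjusted p = 0.0510). miR-222-3p lost its call without E14.5 replicate 2, at −1.73 (limma adjusted p = 0.0787). Its call was also lost without E14.5 replicate 3, at −1.86 (limma adjusted p = 0.110). Without P0 replicate 2 it was lost too, at −1.76 (limma adjusted p = 0.105). In the authors' deposited table the log2 fold changes were −1.51 (standard error 0.57, adjusted p 0.0533) for miR-221-3p and −0.89 (standard error 0.68, adjusted p 0.385) for miR-222-3p. The authors' deposited table gave −0.22 for both 5p arms, with adjusted p-values of 0.916 for miR-221-5p and 0.913 for miR-222-5p. The authors' deposited table thus called 0 of the 4 members at 0.05, where it called 5.16% of its 1104 rows lower at P0.

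Added together, the guide arms that share the seed came to 605, 1044 and 766 TPM at E14.5 against 272, 98.7 and 126 TPM at P0. The seed was thus represented at a lower share of the library in each P0 sample than in any E14.5 sample. After median-of-ratios scaling the sums were 400.3, 711 and 447 at E14.5 and 310.3, 187 and 223 at P0, with means of 519 ± 167 and 239.9 ± 63.6 (SD, n = 3) that lay closer together than the means in TPM, 805 ± 222 and 166 ± 93.1. Within the libraries, miR-221-3p ranked between 97 and 122 of the 1034 miRNAs by TPM at E14.5 and between 137 and 175 at P0. miR-222-3p ranked between 179 and 256 at E14.5 and between 229 and 261 at P0. By reads, miR-221-3p made up 0.0549% to 0.0884% of the library at E14.5 and 0.00779% to 0.0241% at P0.

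Ratios of TPM within a library do not depend on library scaling, and they were used to ask whether the products of the locus changed together. The first was the arm ratio of miR-221. Its 3p to 5p ratio of TPM was 55.1, 64.3 and 94.4 at E14.5 against 113, 34.0 and 15.2 at P0. P0 replicate 1 had the highest ratio of all 6 libraries and P0 replicates 2 and 3 the lowest, so the P0 values lay on both sides of the E14.5 values. As a share of the reads of both arms, miR-221-5p made up 2.02% (95% Wilson interval 1.42 to 2.87), 1.74% (1.57 to 1.92) and 1.19% (0.872 to 1.62) at E14.5. At P0 the share was 0.999% (0.808 to 1.23), 3.24% (2.51 to 4.16) and 6.94% (5.94 to 8.10). The intervals cover counting error only, and those of the 3 P0 libraries did not overlap. The share averaged 1.65% ± 0.42 in embryonic and 3.73% ± 3.00 in newborn samples (SD, n = 3), with p = 0.4 in an exact two-sided permutation test.

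The arm ratio of miR-222 was lower and less one-sided. The 3p to 5p ratio was 5.71, 11.8 and 24.5 at E14.5 against 8.99, 6.24 and 6.31 at P0. Here E14.5 was the variable stage, and its replicate 1 lay below all P0 libraries. miR-222-5p made up 13.7% (95% Wilson interval 10.04 to 18.5), 7.18% (6.51 to 7.91) and 3.58% (2.55 to 5.01) of the reads of both arms at E14.5. At P0 it made up 9.19% (7.88 to 10.7), 12.7% (10.4 to 15.5) and 12.6% (10.7 to 14.8). The share averaged 8.16% ± 5.14 in embryonic and 11.5% ± 2.00 in newborn samples (SD, n = 3), with p = 0.4 in an exact two-sided permutation test. In each of the 6 libraries the passenger share of miR-222 was above that of miR-221.

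Arm ratios were also fitted for all 247 hairpins whose arms both averaged 1 TPM or more, on log2 of the ratio of (TPM + 1), where the added 1 weighs on the scarce 5p arms. The change was −1.12 for miR-221 (SE 0.70, 95% interval −2.80 to 0.55, limma adjusted p = 0.307) and −0.86 for miR-222 (SE 0.59, 95% interval −2.27 to 0.55, limma adjusted p = 0.326), where a negative value is a relative gain of the 5p arm at P0. With 0.1 added in place of 1 the changes were −0.88 and −0.75, and with nothing added the differences in mean log2 ratio were −0.84 and −0.74. With limma, 0% of the 247 arm pairs were called, with 70 at an unadjusted p under 0.05. The median change was 0.03, with 121 pairs lower and 126 higher, and miR-221 and miR-222 were at places 61 and 75 from the lowest. Without P0 replicate 1, the miR-221 change was −1.83 (SE 0.43, limma adjusted p = 0.0208), in a fit that called 23.1% of the pairs lower. The miR-222 change in that fit was −1.02 (SE 0.62, limma adjusted p = 0.215). The miR-221 change was −0.56 without P0 replicate 3, and the miR-222 change was −1.36 without E14.5 replicate 1 and −0.37 without E14.5 replicate 3.

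The second kind of ratio set miR-221 against miR-222. The miR-221-3p to miR-222-3p ratio of TPM was 6.61, 4.34 and 3.76 at E14.5 against 5.68, 3.08 and 2.30 at P0. miR-221-3p was the higher of the pair in all 6 libraries, and the stages overlapped. The difference in mean log2 ratio was −0.47, with p = 0.4 in an exact two-sided permutation test whose smallest possible p is 0.1. Single libraries moved this difference: it was −0.84 without P0 replicate 1, −0.24 without E14.5 replicate 1 and −0.19 without P0 replicate 3. For the 5p arms the order was the opposite, with miR-221-5p to miR-222-5p ratios of 0.686, 0.794 and 0.975 at E14.5 against 0.453, 0.566 and 0.955 at P0. miR-221-5p was thus below miR-222-5p in all 6 libraries. The difference in mean log2 ratio of the 5p arms was −0.37, with p = 0.3 in the exact permutation test. It was −0.14 without P0 replicate 1, −0.24 without E14.5 replicate 3 and −0.68 without P0 replicate 3. On the log2(TPM + 1) scale the 3p arms had a Pearson correlation of 0.934 over the 6 samples, and of 0.697 after median-of-ratios scaling.

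**Figure D4:**
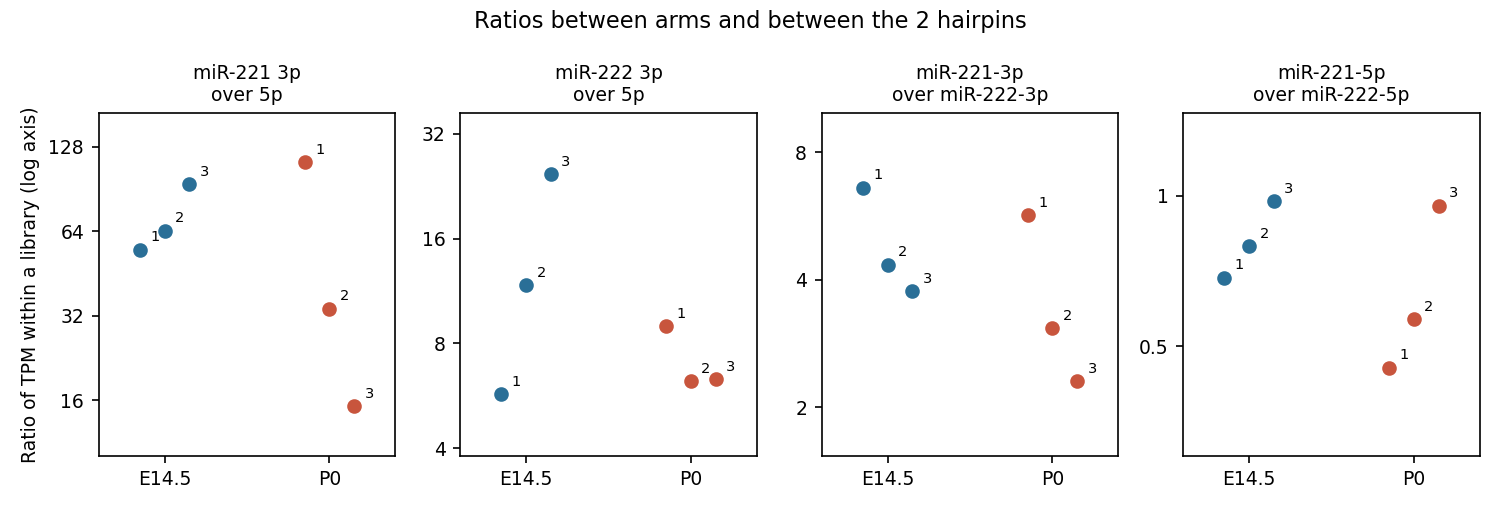
Ratios of TPM within each library (y axes, logarithmic) for the arms of each hairpin and for the 2 hairpins, with points numbered by replicate. In each panel the E14.5 and P0 points overlap, and P0 replicate 1 has the highest miR-221 3p to 5p ratio, 113.

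**Figure D5:**
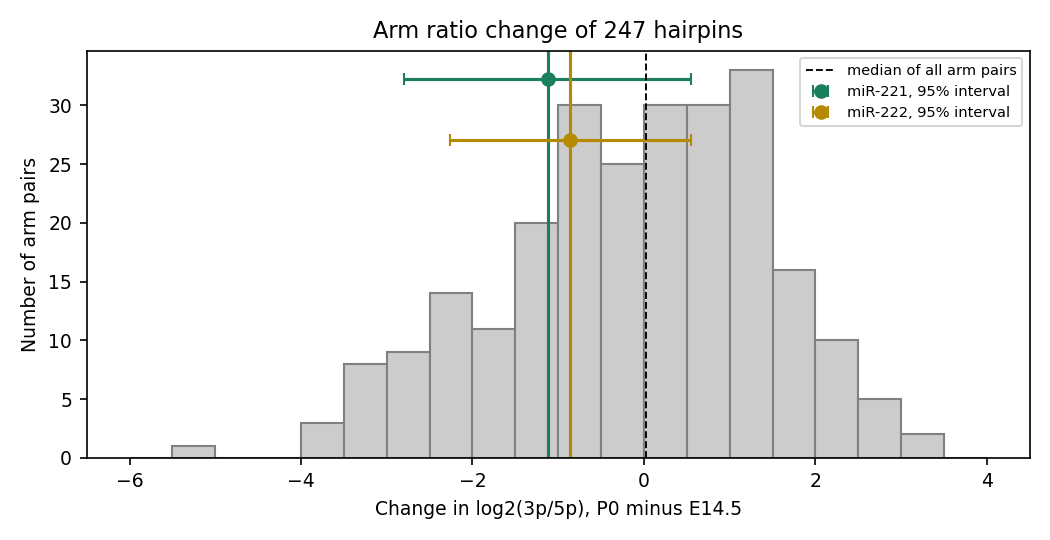
Number of arm pairs (y axis) by their change in log2 of the 3p to 5p ratio, P0 minus E14.5 (x axis), for 247 hairpins, with the values and 95% intervals of miR-221 and miR-222. Both intervals include 0 and both values lie within the bulk of the distribution.

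Other miRNAs linked to proliferation were read from the same fit. The guide arms of the miR-17, miR-106a and miR-106b clusters, which are activated by MYC and E2F factors, numbered 13, and all were tested. In TPM 10 were called lower and 0 higher, with a median log2 fold change of −3.01, beside −1.20 for all miRNAs, of which 32.8% were called lower. After median-of-ratios scaling 4 were called lower and 0 higher, with a median of −1.73, beside −0.18 for all miRNAs, of which 5.22% were called lower. miR-93-5p, the most abundant of them, had a P0 to E14.5 difference of −0.62 (log2, TPM) and 0.66 (log2, scaled values), with limma adjusted p-values of 0.367 and 0.353. miR-20b-5p, with the largest change, had −4.66 and −3.48 (limma adjusted p of 0.00332 and 0.0274). The −2.48 of miR-221-3p lay between these 2 values in TPM, and was a smaller fall than the median of the 13, −3.01. The summed level of the 13 was 58018 TPM in P0 replicate 1, close to the lowest E14.5 library at 59192 TPM, while the lowest P0 library had 19001 TPM. Without P0 replicate 1, 12 of the 13 were called lower in TPM and 9 after scaling, in fits that called 53.4% and 26.4% of all miRNAs lower.

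Because the pair lies on the X chromosome, the other X-linked miRNAs were counted. Of 68 tested, 31 were called lower and 1 higher in TPM, with a median log2 fold change of −1.59 beside −1.20 for all 670 miRNAs, of which 220 (32.8%) were called lower. After scaling 5 of the 68 were called lower and 5 higher, with a median of −0.74 beside −0.18 for all 670, of which 35 (5.22%) were called lower. Their summed level was 48559 to 56238 TPM at E14.5 and 39858 to 71016 TPM at P0, with the highest sum in P0 replicate 1, so the sum overlapped between the stages. Without P0 replicate 1, 40 were called lower and 3 higher in TPM and 28 lower and 12 higher after scaling. Of all 670, those fits called 358 (53.4%) lower and 52 higher in TPM, and 177 (26.4%) lower and 149 higher after scaling. With all libraries, both 3p arms fell further in TPM than the X-linked median, while after scaling miR-222-3p, at −0.72, was level with it.

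Markers of other cells that the bead selection could carry over were counted in the same fits, in which 32.8% of all miRNAs were called lower in TPM and 5.22% after scaling. The endothelial miR-126a arms, of which 2 of 2 were called lower in TPM, summed to 26608 to 44921 TPM at E14.5 and to 5634 to 8158 TPM at P0. The log2 fold changes of miR-126a-3p were −1.97 (TPM) and −0.69 (scaled values) (limma adjusted p of 0.00611 and 0.281), and miR-126a-5p −4.22 and −2.94 (limma adjusted p of 0.00435 and 0.0333). Endothelium also makes miR-221-3p and miR-222-3p, and any part of it in their fall was not tested. The median change in TPM was also negative in each of the lists given next. Of the 8 epithelial and tubule markers 6 were called lower in TPM and 3 after scaling (medians −3.02 and −1.74), with sums of 4887 to 24708 TPM in embryonic and 764 to 2550 TPM in newborn libraries. Of the 7 stromal and smooth muscle markers 3 were called lower in TPM and 0 after scaling (medians −1.25 and 0.03), with sums of 124796 to 148650 TPM and 57052 to 73530 TPM. Of the 5 erythroid markers 1 was called lower in TPM and 0 after scaling (medians −1.07 and 0.16), with sums of 305 to 462 TPM and 165 to 336 TPM. Of the 5 leukocyte markers 1 was called lower in TPM, while after scaling 0 were lower and 1 higher (medians −0.86 and 0.40), with sums of 797 to 1540 TPM and 507 to 751 TPM. The most abundant and most changed erythroid marker, miR-451a, which is made in red cell precursors, had a P0 to E14.5 difference of −2.70 (log2, TPM) and −1.44 (log2, scaled values), with limma adjusted p-values of 0.00605 and 0.0684. Without P0 replicate 1, in TPM, 2 endothelial, 8 epithelial and tubule and 7 stromal and smooth muscle markers were called lower. So were 2 erythroid and 3 leukocyte markers, and 2 erythroid markers were called higher. That fit called 358 of all 670 miRNAs lower, or 53.4%, and 52 higher. After scaling, without that library, the lower calls numbered 1, 4, 2, 2 and 0 in the same order. Called higher were 1 stromal, 2 erythroid and 1 leukocyte markers. That fit called 177 of all 670 miRNAs lower, or 26.4%, and 149 higher. No listed marker was at 0 in all libraries, and the messenger RNAs that define nephron progenitors were not analysed here, so the labelled cell type was not checked against them. The part of other cells in the miR-221 and miR-222 result was not tested.

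The miRNAs with the most similar pattern were found by Pearson correlation over the 6 samples with the mean log2(TPM + 1) of the 3p arms, among 430 other miRNAs averaging 10 TPM or more. The first 5 were miR-6399, miR-409-5p, miR-467a-3p, miR-99a-5p and miR-679-5p, with r of 0.986, 0.984, 0.976, 0.975 and 0.973. miR-467a-3p has several near-identical genomic copies, and its value depends on how the authors' counting divided reads between them. Of the 430, 91 had an r above 0.9 and the median was 0.797. The points share their 6 libraries, and most miRNAs were lower at P0 in TPM. After median-of-ratios scaling miR-6399 still ranked first, with r = 0.911, miR-467a-3p second, with r = 0.877, and miR-409-5p was at place 170. Without P0 replicate 1 the order was different: in TPM these 5 were at places 14, 11, 24, 9 and 5 in the order named, with r of 0.978 to 0.993 over 5 samples. miR-6399 had 26.9, 38.1 and 30.7 TPM at E14.5 against 5.58, 1.13 and 1.86 TPM at P0, with P0 replicate 1 the highest of its stage as for miR-221-3p.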

How the data were processed

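Small RNA libraries (QIAseq miRNA kit, single-end) were made from total RNA, per the labels' protocols. The submitters' processing notes name featureCounts, DESeq2 1.26.0 and build mm10. Trimming, aligner and use of molecular tags were not given in the sources used here. The authors deposited TPM per row and library. Beside TPM, the deposited table gave the authors' own comparison: baseMean (a normalised signal), log2 fold change and standard error, the statistic of their test (a score), and raw and adjusted p-values. TPM times (end minus start) gave whole multiples of 1 step per library in 100% of values (tolerance 0.001), and these reads, divided by median-of-ratios factors from 589 rows, matched the deposited baseMean signal within 4.77e-15.

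Of 1104 rows, 52 names had several, and of these the row with most reads was kept. Of 926 rows named in RefSeq, 924 were at RefSeq's GRCm38.p6 positions. The test was limma 3.58.1 (R 4.3.3) with a trend on log2(TPM + 1), restricted to miRNAs averaging 1 TPM or more, with stage as the only term, Benjamini-Hochberg adjustment and a threshold of 0.05. It was tested on simulated data. Arm ratios used limma without a trend, and single ratios used exact permutation tests (scipy 1.17.1). A floor of 3 reads was 0.0824 to 1.08 TPM for a length step of 22 bases. The Wilson intervals and the floor cover counting error only, while the limma intervals rest on the spread between libraries. The members and lists were chosen with earlier results of these data known. The rule named the 4 members, the 5 most similar miRNAs and, of each list, the most abundant and the most changed miRNA, of which those of the proliferation, endothelial and erythroid lists are given. Alternatives were other scalings, limma-voom on recovered reads, filters, pseudocounts, summed rows, a replicate block and leaving out each library. Leaving out libraries after scaling, and the lists and similar miRNAs without P0 replicate 1, were added after seeing the data.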

Additional observations from a re-analysis of the deposited data

How the results depend on the processing

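Both 3p arms kept their negative direction under every alternative run, and with all libraries their calls were lost under the alternatives that rescale the libraries. miR-221-3p had log2 fold changes of −1.20 with median-of-ratios scaling, −1.19 with upper-quartile scaling and −1.21 with limma-voom on recovered reads, and miR-222-3p had −0.72, −0.71 and −0.80. Filters, pseudocounts and summed rows changed no call of a member. At a filter of 10 TPM the 5p arms, and with them the arm ratios, gave no value. Of the 5p arms, miR-222-5p turned to 0.0074 with upper-quartile scaling. Leaving out each library, in TPM and (chosen after seeing the data) after median-of-ratios scaling, gave −2.98 to −0.96 for miR-221-3p, −2.37 to −0.42 for miR-222-3p, −1.73 to 0.11 for miR-221-5p and −1.49 to 0.26 for miR-222-5p. For the arm ratio it gave −1.83 to −0.56 for miR-221 and −1.36 to −0.37 for miR-222.

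Called miRNAs numbered 229 in TPM, 73 with median-of-ratios scaling, 58 with upper-quartile scaling and 28 with limma-voom. They ranged from 0 to 410 when a library was left out. The 0 arose in limma after scaling, without E14.5 replicate 1, E14.5 replicate 3 or P0 replicate 2, with 140, 136 and 143 miRNAs at an unadjusted p under 0.05. Called arm pairs ranged from 0 to 107, the 107 without P0 replicate 1. The cause was not tested.

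The replicate numbers were not used to pair the samples in the main fit. Deviations from the stage means of same-numbered samples correlated weakly, at 0.0423 to 0.193, and 5 of 6 samples correlated best with their own number. These values do not settle whether same-numbered samples are linked. With the replicate block 247 miRNAs were called in TPM and 56 after scaling. The block changed no call of a member within a scaling (miR-221-3p −1.20 and miR-222-3p −0.72 after scaling). The 5p arms had as few as 30 reads (miR-221-5p) and 32 reads (miR-222-5p) in a library, which limits the precision of the arm ratios.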
